A study of Homo sapiens with 9 samples.

Results

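The genes described here are the translation initiation factors and the eIF2 kinases, measured as mRNA in uCaco-2 cells. They were chosen by symbol. Of 60591 symbols in the counts table, 133 begin with EIF, and 55 stayed after 4 symbols with a hyphen, 73 pseudogenes and 1 Y-linked symbol were left out. All 55 are annotated as protein-coding genes. The study compared chemical activators of the hypoxia-inducible factor (HIF) pathway in Caco-2, a human colon adenocarcinoma line used as a model of the intestinal epithelium. uCaco-2 are its undifferentiated cells. They were kept for 24 h in medium with 300 µM CoCl2, in medium with 5 µM of an oxyquinoline derivative (OD), or in fresh medium as control, each in 3 replicates and all with 0.5% DMSO as the submitters state. Cobalt displaces iron from the prolyl hydroxylases that mark HIF for degradation, and oxyquinoline derivatives block the same enzymes. All libraries come from 1 cell line, and the values are averages over the cells of a culture, so fewer cells with a transcript and less transcript per cell cannot be told apart. Libraries of differentiated cells (dCaco-2) were not analysed here.

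Initiation factors bring the small ribosomal subunit, the initiator tRNA and the capped mRNA together and release the ribosome into elongation at the start codon. The factor eIF2 carries the initiator tRNA, and eIF2B recharges eIF2 with GTP. Any of the 4 eIF2 kinases can phosphorylate eIF2 on its alpha subunit, which turns it into an inhibitor of eIF2B, lowers general protein synthesis and favours translation of ATF4, the transcription factor of the integrated stress response. The cap is read by eIF4E, which joins the helicase eIF4A and the scaffold eIF4G in the eIF4F complex. The 4E-binding proteins hold eIF4E away from eIF4G until the kinase mTORC1 phosphorylates them. Low oxygen is known to reduce protein synthesis through both switches. The measurements here are mRNA levels, and phosphorylation was not among them.

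Library totals ran from 15998136 to 18298190 counts in control cells, from 16286502 to 24209427 with CoCl2 and from 16387054 to 19623776 with OD. All 8 epithelial markers examined were detected in every library, among them VIL1, at 596 to 632 scaled counts (CPM) in control cells, 108 to 119 with CoCl2 and 445 to 460.1 with OD, and KRT20, which was low at 1.06 to 5.99 CPM. The 4 markers of other cells summed to 13.3 to 30.4 CPM. The highest of them was COL1A1, at 13.35 to 16.6 CPM in control cells, 9.33 to 10.9 with CoCl2 and 21.0 to 22.4 with OD. The lowest was PTPRC, which did not exceed 0.232 CPM. CPM here means counts on a common library total, scaled with TMM factors of edgeR. These factors were 0.770 to 0.795 with CoCl2, against 1.11 to 1.12 in control cells and 1.14 to 1.15 with OD, so values with CoCl2 depend on the scaling. Under library size alone, the median log2 fold change over all genes moved from −0.049 to −0.55 for CoCl2 against control, from −0.010 to 0.029 for OD against control and from −0.054 to −0.60 for CoCl2 against OD. No library of a group was a copy of another, since replicate libraries differed by more than sampling noise.

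The initiation factor genes stood above the typical gene with CoCl2 and below it with OD. Their median log2 fold change was 0.43 with CoCl2, where all genes tested had a median of −0.049, and −0.29 with OD, where all genes had −0.010. The distance between the members' median and the median of all genes was 0.48 with CoCl2 and −0.28 with OD under each of 4 scalings of the libraries. A change of scaling moves all genes by nearly the same amount, so this distance could hardly differ between scalings. The CoCl2 distance was 0.25 without the count filter, 0.25 with DESeq2 on 9 libraries and 0.18 with DESeq2 on 6, fits in which more low genes enter the median of all genes. The 55 genes together took 1.21 to 1.22% of all counts in control libraries, 1.27 to 1.28% with CoCl2 and 1.04 to 1.06% with OD. The 3 groups did not overlap in this share. Such a share amounts to scaling by library size alone, and it weighs abundant genes most. Gene by gene under that scaling, the members' median with CoCl2 was −0.071, with 24 members higher and 25 lower by the adjusted p.

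Gene by gene, 52 of the 55 members passed the filter on low counts and were tested with the 15944 genes that did so. Here upregulated and downregulated require both an adjusted p below 0.05 and more than 1 on the log2 scale, the thresholds of the study, while rose and fell require the adjusted p alone. The quasi-likelihood test of edgeR gave the p-values, and the Benjamini-Hochberg adjustment was made over all 15944 genes. With CoCl2, 10 members (19.2%) were upregulated and 5 (9.62%) downregulated by that rule, against a background of 19.9% of all genes upregulated and 23.4% downregulated. By the adjusted p alone, 31 members (59.6%) rose with CoCl2 and 17 (32.7%) fell, where 40.4% of all genes rose and 42.8% fell. With OD, 1 member (1.92%) was upregulated and 1 (1.92%) downregulated, against 9.09% and 4.16% of all genes. The adjusted p alone gave 9 members (17.3%) that rose and 36 (69.2%) that fell with OD, against 32.3% and 33.3% of all genes. Thus the share of members past the fold threshold was at or under the background in each of these directions, and the shares by the adjusted p alone departed from it.

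Both treatments were set against the same 3 control libraries, so their results are given side by side and not as independent. The direct comparison of CoCl2 with OD does not use the control libraries for its difference. There, 16 members (30.8%) were higher with CoCl2 and 3 (5.77%) lower, against 17.5% and 23.8% of all genes, and the adjusted p alone gave 36 (69.2%) higher and 13 (25.0%) lower, against 40.2% and 43.2%. The split depends on the scaling. Under library size alone, 2 members were called upregulated and 9 downregulated with CoCl2, 3 higher and 7 lower in CoCl2 against OD, and 1 upregulated and none downregulated with OD, while upper-quartile factors gave 8 and 5, 11 and 4, and 1 and none. Of the 15 calls with CoCl2, library size alone ended 8, those of EIF1AD, EIF1B, EIF2A, EIF2AK3, EIF3L, EIF4A3, EIF5 and EIF5A2, and of the 19 in CoCl2 against OD it kept 6, those of EIF4A1, EIF5, EIF5A2, EIF2AK2, EIF4G3 and EIF4EBP1. By the adjusted p alone, library size alone gave 24 higher and 25 lower for CoCl2 and 31 higher and 19 lower for CoCl2 against OD.

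**Figure D1:**
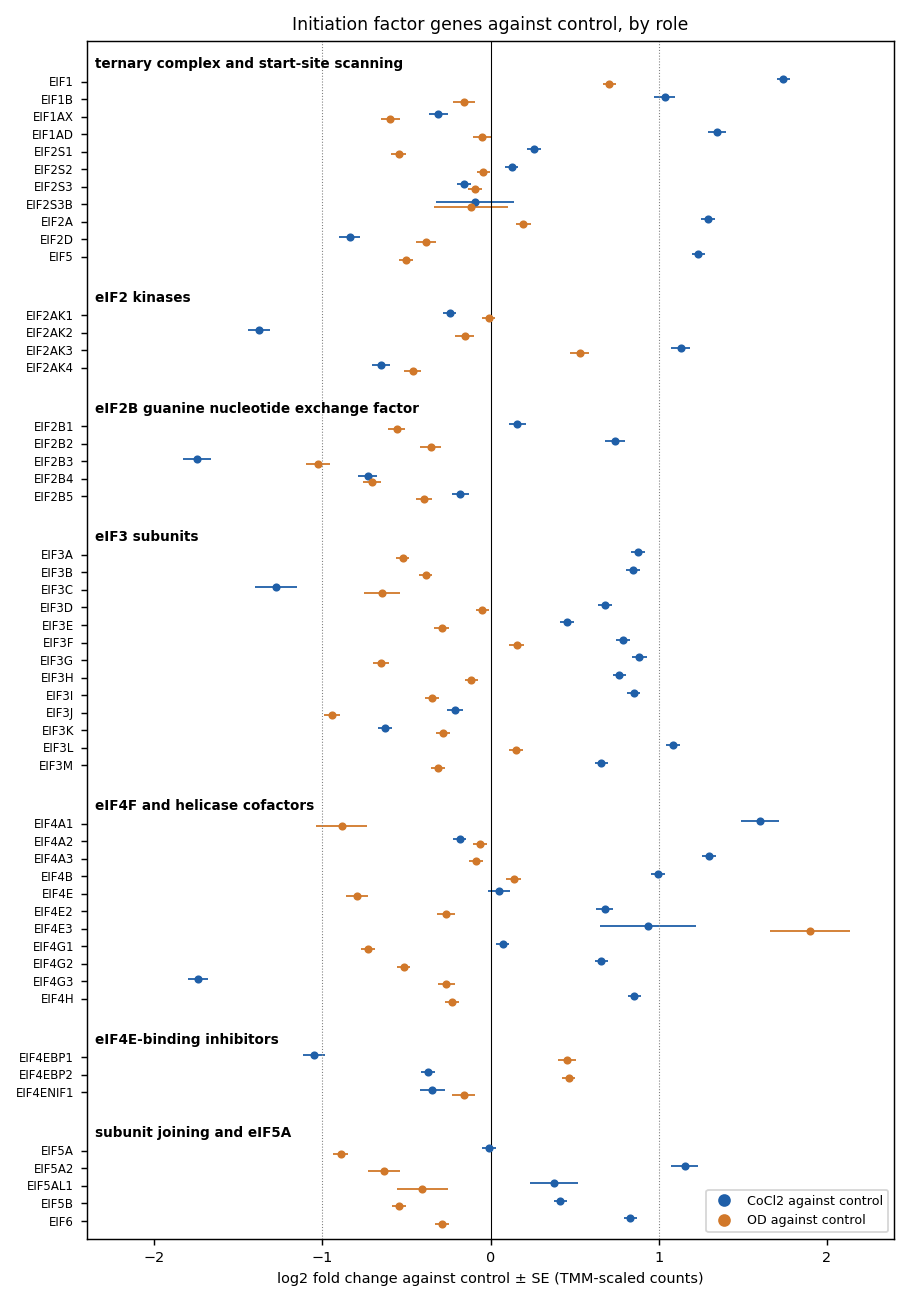
The plot gives the log2 fold change against control, with its standard error as a bar, for each of the 52 tested members, grouped by role. Blue points are CoCl2, orange points are OD, and the dotted lines mark a log2 fold change of 1 in either direction. Among eIF3 subunits most blue points lie right of 0 and most orange points left of it, with medians of 0.77 and −0.31, and the 4E-binding protein genes EIF4EBP1 and EIF4EBP2 show the opposite order. Under library size alone, 8 of the blue points and 1 of the orange points change side of 0.

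The ternary complex and the factors that find the start codon held the largest upregulation with CoCl2. Of the 11 genes with this role, 7 rose with CoCl2, 3 fell and 1 did not pass the test. The highest was EIF1 and the lowest EIF2D, and the median was 0.26, which turned to −0.25 under library size alone. With OD, 2 rose, 6 fell and 3 did not pass, with a median of −0.12. EIF1 (chr17:41688885-41692668, plus strand), whose product keeps the scanning ribosome from starting at wrong codons, stood at 301, 288 and 283 CPM in the control libraries, 999, 973 and 939 with CoCl2 and 476, 479 and 467 with OD. The 3 groups were fully separate, with OD between control and CoCl2. Its log2 fold change was 1.74 ± 0.040 (SE) with CoCl2 (adjusted p = 1.26e-45) and 0.71 ± 0.040 with OD (adjusted p = 2.42e-24).

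EIF1B (chr3:40309707-40312424, plus strand), a close paralogue of EIF1, was measured at 32.0, 30.9 and 30.8 CPM in control libraries, 64.6, 65.3 and 62.3 with CoCl2 and 26.2, 26.6 and 31.3 with OD. The CoCl2 libraries lay above all others, and those with OD overlapped the control. It was upregulated by 1.03 ± 0.061 with CoCl2 (adjusted p = 3.56e-24), a call that ended with upper-quartile factors (0.93), without the count filter (0.97) and under library size alone (0.53). Its value with OD, −0.16 ± 0.065, passed the test (adjusted p = 0.0266) but missed it in 10 of the alternative fits, at adjusted p from 0.0531 to 0.182, 3 of them by leaving out control replicate 1 (−0.13), OD replicate 1 (−0.11) or OD replicate 2 (−0.12). EIF1AD (chr11:65996545-66002176), named for its eIF1A-like domain, gave 44.4, 44.3 and 44.9 CPM in control cells, 116, 111 and 112 with CoCl2 and 45.5, 40.6 and 42.8 with OD. Only the CoCl2 libraries stood apart, by 1.35 ± 0.052 (adjusted p = 2.24e-33), and OD differed from control by −0.052 ± 0.056 (adjusted p = 0.425).

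EIF5 (chr14:103333544-103345025), which makes eIF2 hydrolyse its GTP at the start codon, rose with CoCl2 and fell with OD. Control libraries held 433, 448 and 437 CPM, those with CoCl2 1071, 1055 and 976 and those with OD 306, 317 and 308. Every CoCl2 library was above and every OD library below the control range. The log2 fold changes were 1.23 ± 0.040 with CoCl2 (adjusted p = 1.19e-37) and −0.50 ± 0.040 with OD (adjusted p = 2.42e-17), and the direct difference between the treatments was 1.74 ± 0.041 (adjusted p = 3.18e-45). EIF2A (chr3:150546678-150586016), which is not a subunit of eIF2 and can deliver initiator tRNA without it, had 137, 138 and 141 CPM in control cells, 350.4, 347 and 320.1 with CoCl2 and 151, 160.4 and 164 with OD. It rose with both, by 1.29 ± 0.043 (adjusted p = 7.51e-37) and by 0.19 ± 0.044 (adjusted p = 8.66e-05). The other 6 genes of the role, EIF1AX, EIF2S1, EIF2S2, EIF2S3, EIF2S3B and EIF2D, were within 1 of control on the log2 scale. EIF2D, a factor of tRNA delivery and ribosome recycling, was lowest with CoCl2 at −0.84 ± 0.063 (adjusted p = 3.55e-19), and EIF1AX, the eIF1A gene on the X chromosome, was lowest with OD at −0.59 ± 0.058 (adjusted p = 3.81e-14). EIF2S1 and EIF2S2, for the alpha and beta subunits of eIF2, rose slightly with CoCl2, by 0.26 and 0.13, and were at −0.25 and −0.38 under library size alone.

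**Figure D2:**
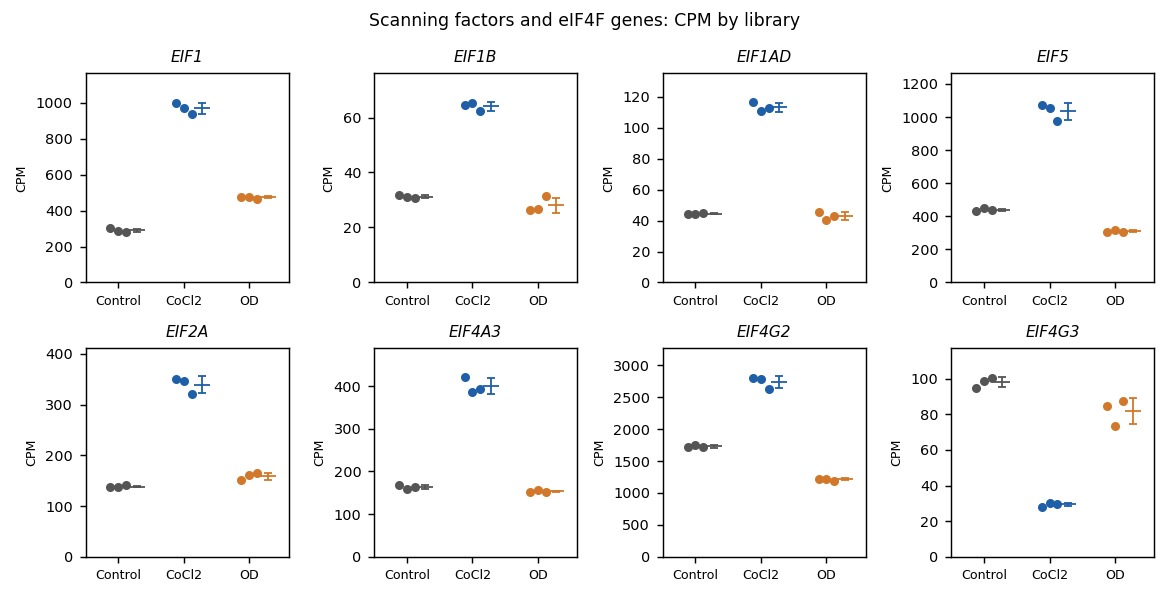
Each panel gives the CPM (linear axis from 0) of 1 gene in the 9 libraries, as points, with the mean and SD of the 3 libraries of a condition beside them. EIF1, EIF1B, EIF1AD, EIF5, EIF2A, EIF4A3 and EIF4G2 were highest with CoCl2, EIF4G3 was lowest with CoCl2 at a mean of 29.4 ± 1.06 CPM, and EIF5 and EIF4G2 were lower with OD than in control cells.

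Promoter sequence was examined because HIF binds DNA at a short core motif. RefSeq windows on GRCh38.p14 were matched by symbol for 46 of the 55 members (62 windows from 250 bases before to 50 after a start), and none was at hand for EIF2S2, EIF2AK1, EIF3A, EIF3CL, EIF3E, EIF3G, EIF3H, EIF3L and EIF4EBP1. Only the 250 bases before the start were searched. The letters ACGTG or GCGTG, the hypoxia response element core on either strand, were found there in 67.7% of the members' windows and in 43.2% of all 35116 windows. The antioxidant response element core, TGACNNNGC, was in 19.4% against 10.9%, the C/EBP-ATF core, TGATGNAA, in 1.61% against 3.14%, and the heat-shock core, GAANNTTC, in 1.61% against 5.78%. These are matches of letters and not sites of binding. Some members have several windows, and by gene the hypoxia core was found for 34 of the 46. Differences in base composition between windows were not taken into account. The 250 bases before the start are shown for 4 members whose window ends where the annotated gene begins: EIF1 and EIF1B, which were upregulated with CoCl2, and EIF2AK4 and EIF4EBP2, which fell with CoCl2. Capitals mark matches to the 4 motifs on either strand. The windows run 5′ to 3′ on the plus strand at chr17:41688635-41688884, chr3:40309457-40309706, chr15:39933865-39934114 and chr10:70403895-70404144 (GRCh38.p14).
EIF1: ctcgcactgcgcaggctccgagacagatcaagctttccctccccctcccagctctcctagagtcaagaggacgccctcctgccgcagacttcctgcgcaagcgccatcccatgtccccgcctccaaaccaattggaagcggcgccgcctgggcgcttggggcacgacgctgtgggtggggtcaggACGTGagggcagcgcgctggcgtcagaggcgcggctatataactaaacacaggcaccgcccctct
EIF1B: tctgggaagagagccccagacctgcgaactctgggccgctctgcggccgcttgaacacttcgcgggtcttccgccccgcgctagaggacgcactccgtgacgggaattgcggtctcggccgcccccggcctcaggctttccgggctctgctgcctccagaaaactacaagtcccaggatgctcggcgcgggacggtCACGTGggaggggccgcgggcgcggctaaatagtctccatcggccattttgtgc
EIF2AK4: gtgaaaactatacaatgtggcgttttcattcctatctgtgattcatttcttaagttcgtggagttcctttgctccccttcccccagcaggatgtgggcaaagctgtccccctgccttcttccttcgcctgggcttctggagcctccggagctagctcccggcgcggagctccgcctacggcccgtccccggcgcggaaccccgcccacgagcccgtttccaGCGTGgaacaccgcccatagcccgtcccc
EIF4EBP2: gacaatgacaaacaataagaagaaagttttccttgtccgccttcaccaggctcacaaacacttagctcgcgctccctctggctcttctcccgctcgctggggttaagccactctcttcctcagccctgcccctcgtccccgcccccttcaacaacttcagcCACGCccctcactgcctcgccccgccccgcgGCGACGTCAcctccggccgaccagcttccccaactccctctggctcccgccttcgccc
All 4 windows shown hold the hypoxia core, for genes that rose and for genes that fell with CoCl2. They are a choice among the windows that end where the gene begins. Those of EIF2S1 and EIF3C also end there and hold no hypoxia core. Windows without the core also occurred in both directions. Those of EIF2AK3 and EIF4A1, upregulated with CoCl2, held none, and neither did those of EIF3C and EIF4G3, downregulated with CoCl2. EIF1B holds the hypoxia core as a palindrome, read on both strands, and the EIF4EBP2 window holds 1 match to the antioxidant core besides.

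The 4 eIF2 kinases, which answer to different stresses, did not move as a group: with CoCl2 1 rose and 3 fell, and with OD 1 rose, 2 fell and 1 did not pass. EIF2AK3 (chr2:88556741-88691518), known as PERK, the kinase of the endoplasmic reticulum, stood at 40.9, 38.9 and 37.8 CPM in control libraries, 90.8, 87.8 and 79.4 with CoCl2 and 55.3, 57.2 and 57.3 with OD. The 3 groups did not overlap, and control was lowest. It rose by 1.13 ± 0.056 with CoCl2 (adjusted p = 7.61e-28) and by 0.53 ± 0.057 with OD (adjusted p = 1.41e-12). CoCl2 exceeded OD by 0.60 ± 0.053 (adjusted p = 4.20e-16), but by 0.054 under library size alone (adjusted p = 0.335).

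EIF2AK2 (chr2:37099210-37157522), or PKR, the kinase that binds double-stranded RNA, was at 57.1, 67.9 and 63.9 CPM in control cells, 22.2, 25.1 and 25.4 with CoCl2 and 54.5, 56.5 and 59.1 with OD. The CoCl2 libraries were all well below the others, which overlapped. It was downregulated with CoCl2, at −1.38 ± 0.065 (adjusted p = 8.63e-29). The difference with OD, −0.15 ± 0.056 (adjusted p = 0.0143), missed the threshold in 6 alternative fits, at adjusted p from 0.0502 to 0.164, among them those without control replicate 2 (−0.097) and without OD replicate 1 (−0.12). EIF2AK4 (chr15:39934115-40035591), or GCN2, the sensor of amino acid shortage, had 68.8, 69.3 and 67.6 CPM in control libraries, 42.4, 44 and 44.7 with CoCl2 and 49.9, 49.4 and 49.9 with OD. Both treatments lay below control, CoCl2 lowest, with log2 fold changes of −0.65 ± 0.054 (adjusted p = 3.42e-17) and −0.46 ± 0.052 (adjusted p = 5.68e-12). EIF2AK1 (chr7:6022247-6059175), or HRI, the heme-regulated kinase, gave 232, 229 and 231 CPM in control cells, 196, 193 and 195 with CoCl2 and 223, 229 and 235 with OD. OD libraries overlapped the control at −0.011 ± 0.040 (adjusted p = 0.828), a value that turned to 0.030 under library size alone. CoCl2 libraries were slightly lower, at −0.24 ± 0.041 (adjusted p = 2.22e-07).

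The ratio of 2 genes within a library does not depend on scaling. The log2 ratio of EIF2AK3 to EIF2AK4 counts was −0.81 ± 0.051 (SD) in control libraries, 0.98 ± 0.14 with CoCl2 and 0.19 ± 0.033 with OD. It was thus higher in every treated library than in any control library, by 1.78 with CoCl2 and by 0.99 with OD. With 3 libraries against 3, the two-sided exact permutation test cannot go below p = 0.1, the value of both differences. In all, 10 such pairs were compared in 3 comparisons, and 27 of the 30 differences did not overlap between conditions, each at p = 0.1 by the exact permutation test, or 0.111 after Benjamini-Hochberg adjustment over the 30. How often pairs of other genes separate in this way was not tested. Most single genes differed: of 15944, 2684 did not pass the adjusted p with CoCl2, 5478 with OD and 2633 between the treatments.

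**Figure D3:**
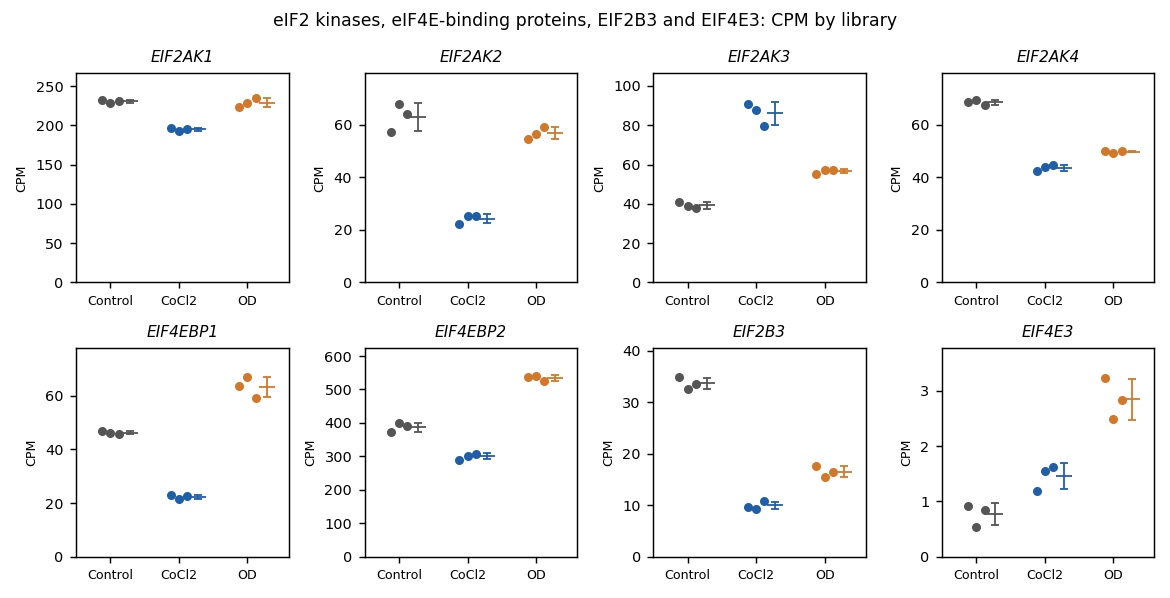
Each panel gives the CPM (linear axis from 0) of 1 gene in the 9 libraries, with the mean and SD of the 3 libraries of a condition beside the points. EIF2AK3 was highest with CoCl2 and EIF2AK2 was lowest with it, EIF4EBP1 and EIF4EBP2 were lowest with CoCl2 and highest with OD, EIF2B3 was below control with both treatments, and EIF4E3 was highest with OD.

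eIF2B, the exchange factor that phosphorylated eIF2 inhibits, had less transcript of its gamma subunit with both treatments. EIF2B3 (chr1:44850522-44986722), the gene of that subunit, a partner of the catalytic epsilon subunit, held 34.8, 32.6 and 33.5 CPM in control libraries, 9.70, 9.36 and 10.8 with CoCl2 and 17.5, 15.5 and 16.5 with OD. The groups were separate, with CoCl2 lowest. EIF2B3 was the 1 member called with both treatments, at −1.75 ± 0.081 with CoCl2 (adjusted p = 3.22e-29) and −1.03 ± 0.071 with OD (adjusted p = 2.86e-20). The OD value lies near the fold threshold: it was −0.99 under library size alone, −0.996 with upper-quartile factors, −0.99 without control replicate 1 and −0.98 without OD replicate 2, and the gene was then not called with OD. EIF2B2 (chr14:75002921-75012366), for the regulatory beta subunit, had 37.3, 34.1 and 38.8 CPM in control cells, 65.1, 58.7 and 59.9 with CoCl2 and 28.6, 29.5 and 27.7 with OD. It rose with CoCl2 by 0.74 ± 0.059 (adjusted p = 6.18e-18), fell by 0.36 ± 0.063 with OD (adjusted p = 1.21e-06), and was called only in CoCl2 against OD, at 1.10 ± 0.060 (adjusted p = 1.50e-25). All 5 eIF2B genes fell with OD, from −1.03 to −0.36, with a median of −0.56. EIF2B5, for the epsilon subunit, was at −0.18 with CoCl2 and −0.40 with OD. With CoCl2, 2 rose and 3 fell, and the median of −0.18 was −0.69 under library size alone. The 2 that rose were EIF2B2 and EIF2B1, of which EIF2B1 went from 0.16 to −0.35 under library size alone.

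Genes around this switch were read from lists. Of 12 eIF2 control genes (phosphatase subunits, kinase activators and partners that are not members), 7 rose and 3 fell with CoCl2, and 4 rose and 5 fell with OD. The median with CoCl2 was 0.20, turning to −0.31 under library size alone, and with OD −0.0037, turning to 0.0033 with RLE factors. PPP1R15A, the stress-induced subunit that directs a phosphatase to eIF2, rose most with both, by 3.53 ± 0.048 (adjusted p = 4.24e-55) and 1.03 ± 0.048 (adjusted p = 2.17e-27). OMA1, the mitochondrial protease that signals to HRI, fell most with both, at −2.49 ± 0.24 (adjusted p = 1.49e-14) and −0.77 ± 0.17 (adjusted p = 8.39e-05), from a mean of 3.78 CPM in control cells. Of 28 targets of the integrated stress response, 21 rose and 5 fell with CoCl2, and 24 rose and 1 fell with OD, with medians of 0.76 and 0.90 (of all genes, 40.4% rose and 42.8% fell with CoCl2, and 32.3% and 33.3% with OD). With CoCl2, 15 rose and 11 fell under library size alone, with a median of 0.26. DDIT4, an inhibitor of mTORC1 that HIF also induces, rose most with both, by 4.16 ± 0.086 and 4.04 ± 0.085 (adjusted p = 2.05e-48 and 6.92e-47). PSPH, a serine synthesis enzyme, fell most with CoCl2, at −1.06 ± 0.063 (adjusted p = 4.19e-24), and ATF5, a transcription factor of the response, was the 1 that fell with OD, at −0.19 ± 0.062 (adjusted p = 0.00609). Between the treatments, 14 of the 28 were higher with CoCl2 and 13 lower, and the median of 0.078 turned to −0.053 with upper-quartile factors and −0.47 with library size alone.

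The genes of eIF3, the large scaffold that binds the small ribosomal subunit, mostly rose with CoCl2 and fell with OD. Of 14 genes, 13 were tested: 10 rose and 3 fell with CoCl2 (median 0.77), and 2 rose, 10 fell and 1 did not pass with OD (median −0.31). Under library size alone 9 rose and 3 fell with CoCl2, with a median of 0.26. In CoCl2 against OD, 11 were higher and 2 lower, with a median of 0.88. EIF3A (chr10:119033670-119080817), for the largest subunit, was at 529, 497 and 505 CPM in control libraries, 971, 899 and 941 with CoCl2 and 352, 338 and 376 with OD. The groups were separate in the order OD, control, CoCl2. Its log2 fold changes were 0.88 ± 0.041 and −0.52 ± 0.041 (adjusted p = 3.31e-29 and 1.07e-17).

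The same order of groups was seen in EIF3B, EIF3G and EIF3I, whose products sit with EIF3A on the solvent side of the ribosome. EIF3B (chr7:2354086-2380745) gave 627, 604 and 594 CPM in control cells, 1116, 1046 and 1120.2 with CoCl2 and 479, 440.4 and 477 with OD, which is 0.85 ± 0.040 and −0.39 ± 0.040 on the log2 scale. EIF3G (chr19:10115014-10119918) gave 139, 129.9 and 142 CPM in control cells, 261, 236 and 261 with CoCl2 and 86.1, 87.1 and 88.2 with OD, or 0.88 ± 0.044 and −0.65 ± 0.046. In both genes no library of one condition reached the range of another. EIF3I (chr1:32221077-32245397) gave 188, 180.4 and 183 CPM in control cells, 341, 318 and 333 with CoCl2 and 144, 143 and 146 with OD, or 0.85 ± 0.041 and −0.35 ± 0.042. Each of these 3 genes passed the test in both directions, at adjusted p of at most 7.32e-11, and was called in CoCl2 against OD, at 1.23, 1.54 and 1.20.

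EIF3L (chr22:37848868-37889407), a peripheral subunit, was the 1 eIF3 gene upregulated with CoCl2 by the fold rule. It stood at 237, 219 and 212 CPM in control libraries, 485, 467 and 467 with CoCl2 and 252, 242 and 249 with OD, and the CoCl2 libraries were far above the others. The log2 fold changes were 1.09 ± 0.041 with CoCl2 (adjusted p = 7.14e-34), which was under the fold threshold at 0.99 with upper-quartile factors and 0.58 under library size alone, and 0.15 ± 0.041 with OD (adjusted p = 0.00104). Of its exonic bases 41.1% are shared with another gene on the same strand, and the part of this in the counts was not tested. EIF3C (chr16:28688558-28735727), a core subunit, was the 1 eIF3 gene downregulated with CoCl2, and its level was low, at 13.7, 12.2 and 9.93 CPM in control cells, 4.48, 5.49 and 4.93 with CoCl2 and 7.27, 6.84 and 9.0 with OD. Both treatments were below control, at −1.28 ± 0.12 (adjusted p = 3.41e-14) and −0.65 ± 0.11 (adjusted p = 4.35e-07). Its near-identical copy EIF3CL held 0 to 4 counts in any library and was not tested. Of the 75-base stretches of EIF3C transcripts, 44% also occur in other genes, and 95.9% of those of EIF3CL do, and how reads that fit several genes were counted is not given in the sources used here. With both summed, the value with CoCl2 was −1.25.

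The remaining 7 eIF3 genes, EIF3D, EIF3E, EIF3F, EIF3H, EIF3J, EIF3K and EIF3M, were all within 1 of control on the log2 scale. EIF3J, a loosely attached subunit, was lowest with OD at −0.94 ± 0.049 (adjusted p = 6.87e-25), and EIF3F was highest with OD at 0.15 ± 0.043 (adjusted p = 0.00116). EIF3J and EIF3K fell with CoCl2, at −0.21 and −0.63, against the direction of most subunits, and EIF3E went from 0.45 to −0.052 under library size alone. Per kilobase of the annotated main transcript, EIF3K had the highest level of the subunits in control cells at 310.0 CPM per kilobase, and EIF3B came next at 196. With CoCl2, EIF3B was highest at 353 and EIF3K was at 200.3. The counts of EIF3C gave 4.10 CPM per kilobase in control cells, far below its partners in the same complex. Since 44% of its 75-base stretches also occur in other genes, its transcript level is uncertain. The part of shared sequence in this low value was not tested.

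**Figure D4:**
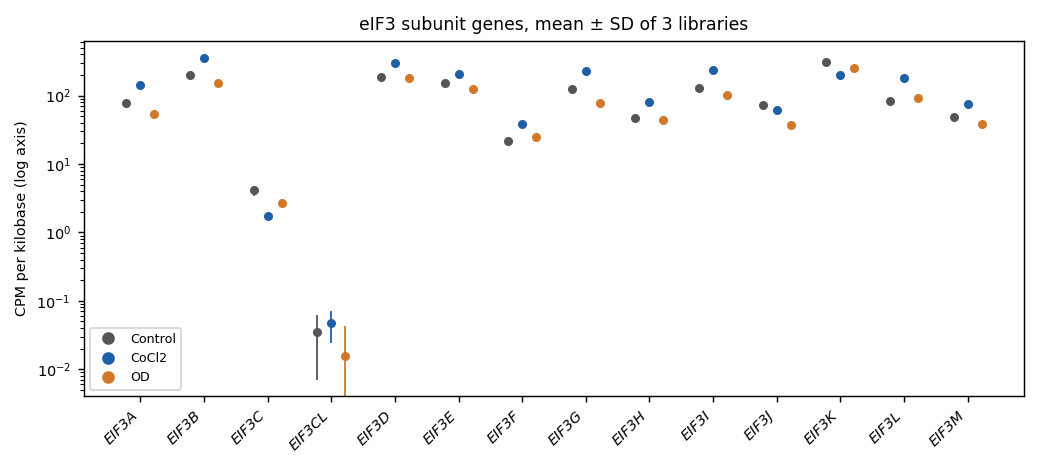
The plot gives CPM per kilobase of the annotated main transcript (log axis) for the 14 eIF3 genes, as the mean of 3 libraries with its SD as a bar. Blue points (CoCl2) lie above grey (control) and orange (OD) for 10 of the 13 tested genes, EIF3C, EIF3J and EIF3K being the exceptions, and EIF3C and its copy EIF3CL lie far below the other 12. Both share sequence with other genes, and the part of this in their low counts was not tested.

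Among the genes of eIF4F and its helicase partners, close relatives moved differently. Of 11 tested genes with this role, 7 rose, 2 fell and 2 did not pass with CoCl2 (median 0.68), and 2 rose, 7 fell and 2 did not pass with OD (median −0.26). The CoCl2 counts were 6 and 4 under library size alone, with a median of 0.17. EIF4G3 (chr1:20806292-21177285), for another eIF4G scaffold, held 95.0, 98.5 and 101 CPM in control libraries, 28.2, 30.2 and 29.8 with CoCl2 and 84.5, 73.5 and 87.4 with OD. The CoCl2 libraries were lowest by a wide margin, and OD was also below control. The log2 fold changes were −1.74 ± 0.060 (adjusted p = 3.33e-36) and −0.26 ± 0.051 (adjusted p = 9.83e-06). EIF4G2 (chr11:10797050-10808940), whose product lacks the part that binds eIF4E and works in initiation without the cap factor, had 1724, 1759 and 1716 CPM in control cells, 2795, 2790.0 and 2625 with CoCl2 and 1221, 1224 and 1194 with OD. It was highest with CoCl2 and lowest with OD without overlap, at 0.66 ± 0.039 (adjusted p = 3.71e-24) and −0.51 ± 0.039 (adjusted p = 1.54e-18).

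Within a library, the log2 ratio of EIF4G1, for the main scaffold, to EIF4G3 was 2.83 ± 0.045 (SD) in the control, 4.64 ± 0.13 with CoCl2 and 2.37 ± 0.11 with OD. The difference from control was 1.81 with CoCl2, toward EIF4G1, and −0.46 with OD, toward EIF4G3 (p = 0.1 for each by the two-sided exact permutation test). EIF4G1 itself differed from control by 0.071 ± 0.040 with CoCl2 (adjusted p = 0.0932), a value that turned to −0.43 under library size alone, and fell by 0.73 ± 0.040 with OD (adjusted p = 1.25e-24).

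The helicase genes were uneven too. EIF4A3 (chr17:80134369-80147151), whose product belongs to the exon junction complex rather than to eIF4F, was at 168, 158 and 163 CPM in control cells, 423, 386 and 393 with CoCl2 and 152, 156 and 152 with OD. CoCl2 libraries were above all others, by 1.30 ± 0.042 (adjusted p = 9.99e-38), and OD differed from control by −0.088 ± 0.043 (adjusted p = 0.0635), a value that passed the test without control replicate 2 (−0.11, adjusted p = 0.0345) and with the replicate block (−0.088, adjusted p = 0.0409). EIF4A1 (chr17:7572824-7579006), for the main helicase of eIF4F, had 4.09, 4.90 and 4.09 CPM in control cells, 13.4, 13.5 and 13.1 with CoCl2 and 2.32, 2.53 and 2.24 with OD, from 42 to 249 counts per library. The 3 groups were separate, and the difference between CoCl2 and OD, 2.49 ± 0.12 (adjusted p = 1.56e-27), was the largest of any member in any comparison. Against control it was 1.60 ± 0.11 with CoCl2 and −0.89 ± 0.15 with OD. Its level is uncertain, since 47.4% of its exonic bases are shared with other genes on the same strand, among them the readthrough gene SENP3-EIF4A1, which itself held 2 to 6 counts in control libraries, 12 to 32 with CoCl2 and 1 to 2 with OD. Summing both genes, a step chosen after seeing the data, gave 1.69 with CoCl2 and −0.91 with OD. EIF4A2, its paralogue, differed from control by −0.18 and −0.063.

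Of the cap-binding genes, EIF4E (chr4:98879276-98929133) had 35.2, 39.9 and 38.5 CPM in control cells, 41.2, 39.8 and 37.1 with CoCl2 and 22.2, 20.0 and 23.5 with OD. CoCl2 overlapped the control and all OD libraries lay below it. EIF4E fell by 0.79 ± 0.067 with OD (adjusted p = 1.82e-16) and differed by 0.051 ± 0.064 with CoCl2 (adjusted p = 0.458), which was −0.45 under library size alone. EIF4E3 (chr3:71675414-71754773), a divergent cap-binding relative, was scarce, with 11 to 17 counts in control libraries, 19 to 31 with CoCl2 and 53 to 71 with OD. In CPM it was 0.915, 0.539 and 0.841 in control cells, 1.18, 1.55 and 1.63 with CoCl2 and 3.22, 2.49 and 2.82 with OD, in that order without overlap. It was the 1 member upregulated with OD, by 1.90 ± 0.24 (adjusted p = 1.57e-10). With CoCl2 it differed by 0.94 ± 0.28 (adjusted p = 0.00229), which missed the threshold under library size alone (adjusted p = 0.152) and with DESeq2 on 6 libraries (adjusted p = 0.0760). Within a library the log2 ratio of EIF4E to EIF4E3 was lower than in the control by 2.67 with OD and by 0.87 with CoCl2 (p = 0.1 for each by the exact permutation test). The other genes of the role that were tested, EIF4B, EIF4E2 and EIF4H, rose with CoCl2 by 0.68 to 1.00, and EIF4H, a helicase cofactor, was called in CoCl2 against OD at 1.09 ± 0.041 (adjusted p = 4.12e-34). EIF4E1B, the oocyte form of the cap-binding protein, held 0 or 1 count in each library and was not tested.

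Both tested 4E-binding protein genes were lower with CoCl2 and higher with OD, the reverse of the medians over all members. EIF4EBP1, for the 4E-binding protein 4E-BP1, stood at 46.8, 46.2 and 45.7 CPM in control libraries, 22.9, 21.6 and 22.4 with CoCl2 and 63.6, 66.8 and 59.3 with OD. CoCl2 libraries were the lowest and OD libraries the highest, with no overlap. EIF4EBP1 was downregulated with CoCl2, at −1.05 ± 0.065 (adjusted p = 3.87e-23), a value of −0.998 and thus no call with RLE factors, and rose by 0.45 ± 0.055 with OD (adjusted p = 6.41e-11), and the treatments differed by −1.50 ± 0.062 (adjusted p = 6.33e-32). EIF4EBP2 (chr10:70404145-70428618), for 4E-BP2, had 373, 399 and 392 CPM in control cells, 291, 301 and 308 with CoCl2 and 538, 541 and 525 with OD. The order of the groups was that of EIF4EBP1, with log2 fold changes of −0.37 ± 0.040 (adjusted p = 8.20e-13) and 0.46 ± 0.039 (adjusted p = 1.96e-16). EIF4EBP3 (chr5:140547662-140549576) held 1 to 6 counts in each library, at 0.215, 0.0490 and 0.224 CPM in control cells, 0.311, 0.0774 and 0.262 with CoCl2 and 0.272, 0.133 and 0.213 with OD, and was not tested. It shares 70.4% of its 75-base stretches with other genes, chiefly its readthrough gene ANKHD1-EIF4EBP3, which held 13 to 29 counts. EIF4ENIF1, for the eIF4E transporter, was at −0.35 ± 0.075 with CoCl2 (adjusted p = 3.62e-05) and −0.16 ± 0.071 with OD (adjusted p = 0.0418). The OD value missed the threshold under each of the 3 other scalings (adjusted p = 0.0515 to 0.139) and with several further fits, among them those without control replicate 1 (−0.13), control replicate 2 (−0.15) or OD replicate 2 (−0.064).

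The transcript balance of 4E-BP1 and its target is free of scaling. The log2 ratio of EIF4EBP1 to EIF4E counts was 0.29 ± 0.11 (SD) in control libraries, −0.82 ± 0.083 with CoCl2 and 1.53 ± 0.20 with OD. The difference from control was −1.11 with CoCl2 and 1.24 with OD, and CoCl2 differed from OD by −2.35 (p = 0.1 for each by the exact permutation test). The log2 ratio of EIF4EBP1 to EIF4EBP2 was lower than in the control by 0.68 with CoCl2 (exact permutation p = 0.1). With OD this ratio overlapped the control, at a difference of −0.015 (exact permutation p = 0.8). The other overlapping pairs were EIF4E with EIF4E2 and EIF1 with EIF1B, both in CoCl2 against OD (exact permutation p = 0.2 and 0.3).

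**Figure D5:**
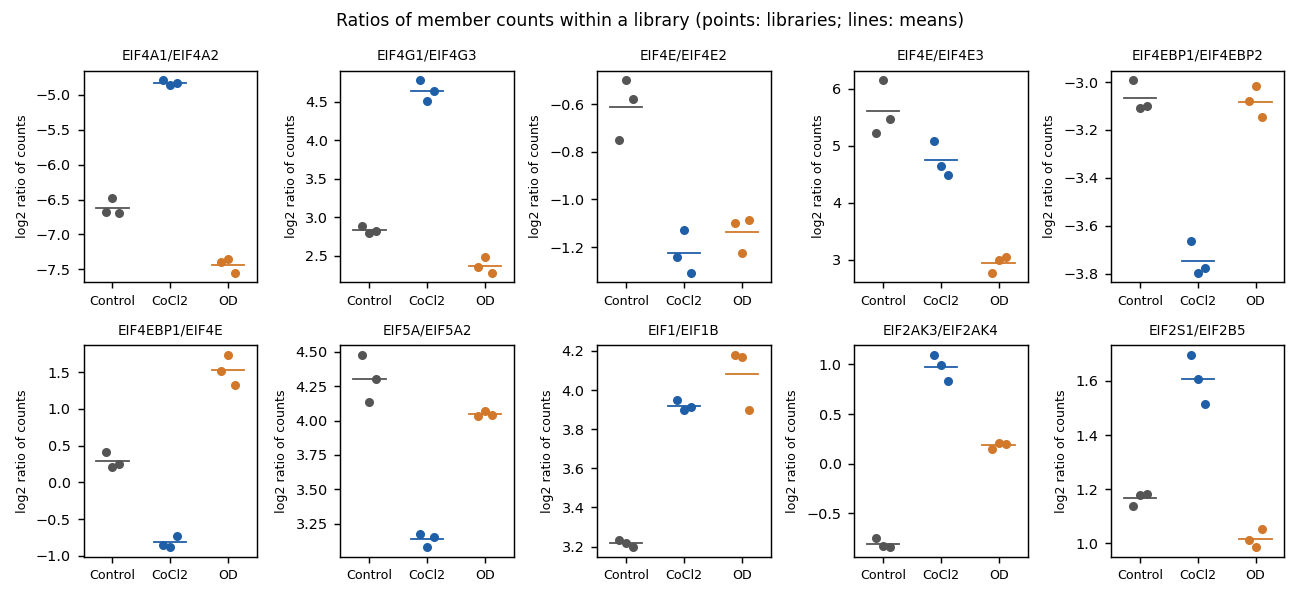
Each panel gives the log2 ratio of the counts of 2 members within a library for the 9 libraries (points), with the mean of a condition as a line, and each panel has its own vertical axis that does not start at 0. The ratio of EIF4EBP1 to EIF4E lies at −0.82 ± 0.083 with CoCl2 and 1.53 ± 0.20 with OD, on either side of the control, and those of EIF4A1 to EIF4A2 and EIF4G1 to EIF4G3 are highest with CoCl2 and lowest with OD.

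Of 20 cap-binding and mTORC1 control genes that are not members, 10 rose and 9 fell with CoCl2, and 7 rose and 8 fell with OD. The medians were 0.11 with CoCl2, which turned to −0.40 under library size alone, and −0.0089 with OD, which turned to 0.031. AKT1S1, an inhibitory subunit of mTORC1, rose most with CoCl2, by 2.75 ± 0.045 (adjusted p = 8.53e-54), and MLST8, a core subunit of both mTOR complexes, fell most, at −1.22 ± 0.070 (adjusted p = 1.08e-24). PDCD4, an inhibitor of the helicase eIF4A, rose most with OD, by 1.60 ± 0.065 (adjusted p = 4.48e-30), and PAIP1, which links the poly(A)-binding protein to eIF4A, fell most, at −0.54 ± 0.052 (adjusted p = 2.58e-14).

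The last role holds the genes for subunit joining and eIF5A. With CoCl2, 4 of the 5 rose and 1 did not pass, with a median of 0.41 that turned to −0.091 under library size alone. All 5 fell with OD, with a median of −0.54, and all 5 were higher with CoCl2 than with OD, with a median of 0.96. EIF5A2 (chr3:170888418-170908644), a paralogue of the gene of the hypusinated factor eIF5A, had 11.4, 13.4 and 12.9 CPM in control libraries, 27.5, 29.5 and 27.4 with CoCl2 and 8.36, 8.30 and 7.61 with OD. The groups were separate in the order OD, control, CoCl2, with log2 fold changes of 1.16 ± 0.080 (adjusted p = 9.68e-21) and −0.63 ± 0.094 (adjusted p = 2.38e-08). EIF5A (chr17:7306999-7312463) itself had 255, 237 and 255 CPM in control cells, 249, 249 and 244 with CoCl2 and 137, 139.7 and 126 with OD. It fell by 0.89 ± 0.043 with OD (adjusted p = 1.64e-27), while CoCl2 overlapped the control at −0.0091 ± 0.042 (adjusted p = 0.847), a value that was 0.042 with RLE factors and −0.51 under library size alone. The log2 ratio of EIF5A to EIF5A2 within a library was lower than in the control by 1.17 with CoCl2 and by 0.26 with OD (p = 0.1 for each by the exact permutation test).

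EIF6 (chr20:35278907-35284985), whose product keeps the large ribosomal subunit from joining too early, gave 201, 193 and 204 CPM in control cells, 359.9, 347 and 357 with CoCl2 and 169, 162 and 159 with OD. No library of one condition reached the range of another. Its values were 0.83 ± 0.041 with CoCl2 (adjusted p = 4.26e-28), −0.29 ± 0.041 with OD (adjusted p = 1.23e-08) and 1.12 ± 0.041 between them (adjusted p = 1.19e-34). EIF5B, the GTPase of subunit joining, rose by 0.41 with CoCl2 and EIF5AL1, a copy of EIF5A, by 0.38, and both were below 0 under library size alone, at −0.091 and −0.13. For comparison, 15 genes were tested from a list for the later steps of translation, elongation and termination. The list also holds related genes that are not factors of these steps, such as DOHH, DHPS, EEF2K and EEF1E1. Of the 15, 9 rose and 6 fell with CoCl2 (median 0.30, or −0.21 under library size alone), and 2 rose and 9 fell with OD (median −0.35). Among these, DOHH, the enzyme of the last hypusination step of eIF5A, rose most with CoCl2, by 1.32 ± 0.066 (adjusted p = 1.95e-27), and GSPT2, a release factor gene, fell most, at −2.00 ± 0.14 (adjusted p = 7.75e-21). With OD, EEF1A2, for the tissue-restricted form of the factor that carries tRNA in elongation, rose most, by 2.23 ± 0.10 (adjusted p = 7.91e-29), and EEF1E1, a scaffold of the tRNA synthetase complex, fell most, at −1.30 ± 0.19 (adjusted p = 2.13e-05). EEF1G was not tested.

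Read across the roles, the medians of CoCl2 against OD were 0.88 for the eIF3 subunits, 0.86 for eIF4F, 0.96 for subunit joining and eIF5A and 0.80 for the scanning role. They were −0.83 for the eIF4E-binding inhibitors, −0.21 for the eIF2 kinases and 0.21 for eIF2B. Under library size alone the same roles had 0.33, 0.31, 0.41, 0.26, −1.38, −0.76 and −0.33, so the order of the sizes depends on the scaling, while the sign changed for eIF2B alone.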

How the data were processed

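Messenger RNA was measured in 9 uCaco-2 libraries (3 per condition) prepared with a stranded poly(A) kit and read as 75-base single ends. The authors checked reads with FastQC 0.11.9, trimmed them with cutadapt 2.10, mapped them on GRCh38.p13 with STAR 2.7.5b and deposited raw counts per gene symbol of GENCODE 34. The counting tool and its treatment of strand and of reads that fit several genes are not given in the sources used here. There were 0 columns of samples left unused.

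TMM scaling, the filter on low counts and a robust quasi-likelihood fit of all 9 libraries with 1 mean per condition were done with edgeR 4.0.16 (R 4.3.3). The study used DESeq2, which is an alternative here (version 1.42.0), beside other scalings, other filters, fits on 6 libraries, a replicate block and each replicate left out. Ratios of 2 members used counts with 0.5 added and a two-sided exact permutation test. Gene positions, lengths and shared 75-base stretches came from GENCODE 44 on GRCh38. On simulated counts for CoCl2 against control with 200 of 15057 genes changed 4-fold, the fit recovered 200, all with the right sign, and called 1 unchanged gene. Recovery of changes under 4-fold, or with as large a share of genes changed as was called with CoCl2, was not tested. Paper methods name 3 biological replicates. P-values measure the spread between these cultures of 1 line.

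Values per library are given for the 20 called members with the largest change in any comparison, for the eIF2 kinases and for the 4E-binding protein genes. EIF4E, EIF5A and the members whose sign depends on scaling were added after their values were seen. Of each list, the largest rise and fall with each treatment are named. The members and lists were chosen with earlier results of these data known.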

Additional observations from a re-analysis of the deposited data

How the results depend on the processing

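Alternatives gave 1410 values for the 20 called members, the eIF2 kinases and the 4E-binding protein genes chosen for full values. Of these values, 1382 kept their direction and their side of an adjusted p of 0.05, 19 lost it, 2 gained it and 7 reversed. The members added later for their sign are not among them. Over all 52 tested members, library size alone changed the sign of 8 with CoCl2, 1 with OD and 4 in CoCl2 against OD. With the fold requirement, 36 calls gave 720 values under alternatives, of which 684 stayed called, 36 did not and 0 changed sign. The 720 include, for every call, the fits that sum EIF3C with EIF3CL and EIF4A1 with SENP3-EIF4A1. These fits leave the other genes almost unchanged and kept every call, and the 1410 count them for the summed gene only. Library size alone ended 8 of 15 calls with CoCl2, 1 of 2 with OD and 13 of 19 in CoCl2 against OD. The 7 reversals among the 1410 values were all of EIF2AK1 with OD, a value near 0 (−0.011). It was 0.021 with upper-quartile factors, 0.030 with library size alone and 0.014 with at least 10 counts in every library. On 6 libraries it was 0.00033 with DESeq2 and 0.0062 with edgeR, and it ran from −0.024 to 0.0090 with 1 replicate left out. For CoCl2, 15 members were called and 48 of the 52 tested passed by the adjusted p alone, and leaving out 1 replicate gave 15 to 17. For OD (2), the adjusted p alone gave 45, upper-quartile factors 1, library size alone 1, and leaving out 1 replicate 1 to 2, the lower count without control replicate 1 or OD replicate 2, where EIF2B3 fell under the fold threshold. For CoCl2 against OD (19), the adjusted p alone gave 49, library size alone 10, and leaving out 1 replicate 19 to 21. The 27 ratio differences without overlap ranged from 27 to 28 with 1 replicate left out. With the replicate block the counts of calls stayed at 15, 2 and 19, and EIF4A3 with OD passed by the adjusted p alone (−0.088, adjusted p = 0.0409). Deviations of libraries with the same number had small correlations, from −0.0049 to 0.038, while 6 of 9 libraries were closest to one of their own number. Whether the numbers mark paired cultures was not tested. The filter on low counts left 3 members untested, EIF3CL, EIF4E1B and EIF4EBP3. The largest standard errors were those of EIF4E3 (0.285), EIF2S3B (0.232), EIF5AL1 and EIF4A1 (0.152 each) and EIF3C (0.133). The causes of these dependences on settings were not tested.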
